A study of Mus musculus with 14 samples.

Results

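Maf, Spi1, Cebpa, Cebpb, Bhlhe40, Bhlhe41, Mitf and Tfec encode transcription factors that set up and maintain the macrophage lineage. They were chosen by symbol, through the Ensembl identifiers of the deposited count table, and make up 8 of its 47937 genes. All 8 were found, and all 8 passed the filter on low counts that left 13061 genes for testing. They were followed in wild-type (WT) mouse bone marrow-derived macrophages, cells grown in culture from marrow precursors. Cells were given the supernatant of mast cell intracellular traps (n = 3 libraries) or of mast cells (n = 5) for 3.5 h, or were left untreated (n = 6). All groups share the WT genotype and the cell type, and each group has at least 1 library in each of 3 batches named in the labels. Whether replicates are separate cultures or animals is not in the labels, and p-values therefore describe the spread among these libraries, which may be technical. The sources used here do not give the age, sex or strain of the animals or how the supernatants were made. The series title places the treatments in a study of signal relay by mast cells that trap neutrophils.

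PU.1, the ETS family protein encoded by Spi1, opens myeloid enhancers together with the C/EBP proteins, of which C/EBP alpha (Cebpa) is needed early in the lineage and C/EBP beta (Cebpb) is linked to mature and activated macrophages. c-MAF (Maf) holds mature macrophages in a differentiated state and drives genes such as Il10. DEC1 (Bhlhe40) and DEC2 (Bhlhe41) are E-box-binding repressors that also act on the circadian clock, and in mouse macrophages they restrain Maf. MITF and TFEC belong to the MiT/TFE family, whose members bind related E-boxes and act on lysosome and osteoclast genes. Mitf, Spi1 and Gata2 are also active in mast cells.

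Promoter sequence from RefSeq (GRCm38.p6) was at hand for 5 of the 8 genes, and Maf, Spi1 and Bhlhe40 were not matched. The windows held 250 bases before each start, and 4 of them are shown. Short motifs of the factors described here, or of the cAMP response element, are in capitals. The Mitf windows also hold such motifs and are described below without their sequence. For Bhlhe41 only the 112 bases outside the annotated gene body are given. Positions count back from the base before the RefSeq start, which is -1. The Cebpa window (chr7:35119043-35119292, plus strand) holds a C/EBP motif, TTGCGNNA, whose first base is at -185.
Cebpa: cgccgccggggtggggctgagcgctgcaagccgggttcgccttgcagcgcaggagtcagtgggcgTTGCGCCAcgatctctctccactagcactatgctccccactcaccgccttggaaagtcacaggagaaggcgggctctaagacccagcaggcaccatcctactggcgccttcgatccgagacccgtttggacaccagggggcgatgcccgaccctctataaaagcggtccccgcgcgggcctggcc
The Cebpb window (chr2:167688665-167688914, plus strand) holds 3 copies of the short cAMP response element TGACG, at -180 on the opposite strand and at -53 and -7 on the gene's own strand.
Cebpb: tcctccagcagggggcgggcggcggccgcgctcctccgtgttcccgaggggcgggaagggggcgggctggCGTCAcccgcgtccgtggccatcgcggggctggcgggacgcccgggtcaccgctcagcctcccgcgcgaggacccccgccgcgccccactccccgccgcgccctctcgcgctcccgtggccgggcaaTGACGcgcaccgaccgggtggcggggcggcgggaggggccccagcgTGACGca
The Bhlhe41 window (chr6:145865559-145865670, minus strand) holds an E-box, CACGTG, at -153, the motif that Bhlhe41's own product binds.
Bhlhe41: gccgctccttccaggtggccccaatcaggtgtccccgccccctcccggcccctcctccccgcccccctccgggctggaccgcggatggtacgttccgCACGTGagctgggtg
The Tfec window (chr6:16898442-16898691, minus strand) holds the PU.1 motif AGGAAGT at -71.
Tfec: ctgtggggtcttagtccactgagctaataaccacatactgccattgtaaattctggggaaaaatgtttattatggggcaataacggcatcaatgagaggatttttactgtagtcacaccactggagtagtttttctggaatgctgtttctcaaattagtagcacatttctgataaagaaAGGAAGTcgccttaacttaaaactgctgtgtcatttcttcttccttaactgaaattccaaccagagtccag
Both strands were searched for these 4 motifs and for the MAF motif TGCTGAC, and no match overlapped one of another motif. Over 32851 promoter windows, 2.94% held TTGCGNNA, 17.8% TGACG, 6.02% CACGTG, 7.69% AGGAAGT and 3.81% TGCTGAC. Of the 3 Mitf windows, 1 held both TTGCGNNA and TGCTGAC, 1 held TGCTGAC and 1 held TGACG on both strands, in overlapping matches whose leftmost bases are at -153 and -150. A match describes these letters and does not show binding.

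Library totals ran from 11729073 to 22720419 counts, and mitochondrially encoded genes took 1.26% to 1.94% of them. All 10 macrophage markers, among them Csf1r, Adgre1 and Cd68, were detected in every library. Transcripts of mast cells were present in the treated libraries. The 22 mast cell markers summed to 95, 841 and 2251 CPM (counts per 1e6 counts of a library, scaled by TMM) with trap supernatant in batches 1, 2 and 3, and to 91.6 and 118 CPM in batch 1, 1567 CPM in batch 2 and 323 and 260 CPM in batch 3 with mast cell supernatant. Untreated libraries held 8.03 to 13.0 CPM, with 11 to 16 of the 22 at 0 counts. The mast cell receptor gene Kit was at 171 CPM in trap replicate 3 and 121 CPM in mast cell supernatant replicate 2, the libraries with the highest sums, and the mast cell factor gene Gata2 was at 36.9 and 28.7 CPM there. Untreated libraries had at most 0.616 CPM of Kit and 4.19 to 6.92 CPM of Gata2. These mast cell transcripts move with both treatments. Their part in the results below was not tested, but results are also given without those 2 libraries. In bulk RNA, fewer cells of a type and less RNA per cell cannot be told apart.

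On the length-normalised TPM scale, which corrects for exon length and depth, the 8 levels in untreated macrophages spanned a wide range. Spi1 was highest at 1047 ± 54.3 TPM (SD, n = 6), followed by Cebpb at 819 ± 93.6 TPM and Cebpa at 255 ± 38.7 TPM. The ranges of these 3 over the 6 libraries did not meet each other or that of any lower gene. Bhlhe40 (102 ± 7.43 TPM) and Mitf (83.2 ± 8.08 TPM) came next and overlapped each other. Bhlhe41 (31.8 ± 10.7 TPM) overlapped Maf (21.1 ± 5.96 TPM), and Maf overlapped Tfec (13.4 ± 1.57 TPM). With trap supernatant Maf averaged 40.3 ± 21.8 TPM (n = 3) and Bhlhe41 28.3 ± 10.7 TPM, and with mast cell supernatant Maf averaged 45.9 ± 28.0 TPM (n = 5) and Bhlhe41 28.2 ± 7.99 TPM, so the order of their means was the opposite of that in untreated cells. By batch, Maf was above Bhlhe41 in all 5 treated libraries of batches 2 and 3, while the 3 treated libraries of batch 1 kept the untreated order.

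**Figure D1:**
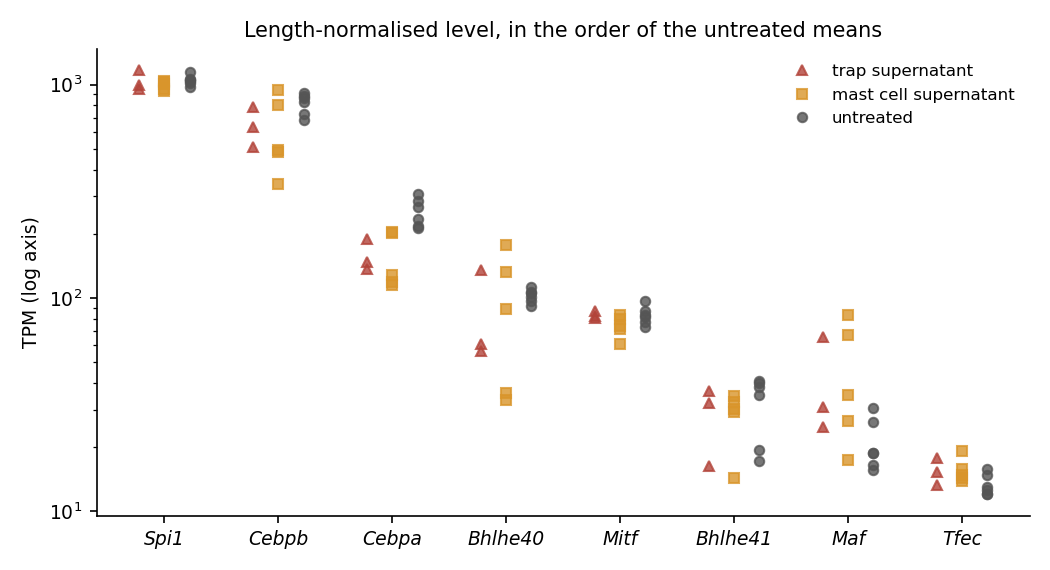
TPM of each gene on a log axis, 1 point per library, for trap supernatant (n = 3), mast cell supernatant (n = 5) and untreated macrophages (n = 6), with genes in the order of their untreated means. The untreated means run down from 1047 TPM for Spi1 to 13.4 TPM for Tfec, and the untreated points of Bhlhe40 and Mitf, of Bhlhe41 and Maf, and of Maf and Tfec overlap.

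Of the 8 genes, Maf was higher and Cebpa lower with either supernatant, and Bhlhe41 was slightly lower with mast cell supernatant. With trap supernatant 1 of 8 rose and 1 of 8 fell at a false discovery rate of 0.05 (edgeR's quasi-likelihood test with batch in the model), where 0.919% of all genes tested rose and 0.796% fell (1.72% in either direction). With mast cell supernatant 1 of 8 rose and 2 of 8 fell, where 2.17% of all genes rose and 2.62% fell (4.79% in either direction). The median log2 fold change of the 8 was -0.07 with trap supernatant and -0.19 with mast cell supernatant, and that of all genes tested was -0.01 in both. Both comparisons use the same 6 untreated libraries, so their values are not independent of each other.

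Maf (ENSMUSG00000055435, GRCm38 chr8:115682942-115707794, minus strand) was measured at 70.9, 72.6 and 164 CPM with trap supernatant in batches 1, 2 and 3. Libraries with mast cell supernatant had 78.1 and 54.0 CPM in batch 1, 81.6 CPM in batch 2 and 175 and 206 CPM in batch 3. Untreated libraries had 50.5 and 50.5 CPM, 37.9 and 36.3 CPM, and 80.9 and 66.3 CPM in the same order of batches. Every treated library thus lay above both untreated libraries of its own batch, as for 7.94% of all genes tested with trap supernatant and 4.07% with mast cell supernatant, while the groups overlapped over the whole series because batch 3 was high throughout. The level rose 1.81-fold with trap supernatant (log2 0.86 ± 0.18 SE; adjusted p = 0.0478) and 1.93-fold with mast cell supernatant (log2 0.95 ± 0.16; adjusted p = 0.00782). Within batches 1, 2 and 3 the log2 differences were 0.49, 0.97 and 1.17 for trap supernatant, and 0.36, 1.14 and 1.37 for mast cell supernatant. The rise with trap supernatant passed the threshold narrowly. It was kept without untreated replicates 1 or 4 or mast cell supernatant replicates 4 or 5, while leaving out any of the other 10 libraries gave log2 values of 0.77 to 0.92 and adjusted p of 0.0665 (without mast cell supernatant replicate 2) to 0.237 (without trap replicate 3). Without the 2 libraries richest in mast cell transcripts it was 0.84 (adjusted p = 0.321) with trap supernatant and 0.91 (adjusted p = 0.0582) with mast cell supernatant. The smallest log2 rises, 0.49 and 0.36, were in batch 1, whose treated libraries held 91.6 to 118 CPM of mast cell markers. In batch 3 the trap library, with 2251 CPM of these markers, rose by 1.17, and mast cell supernatant replicates 3 and 5, with 323 and 260 CPM, by 1.25 and 1.49.

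Of 7 tested genes of a c-MAF target list (complement C1q genes, Mrc1, Folr2, Ccr2 and Il10), 0 passed with trap supernatant and 1 rose with mast cell supernatant, where 4.79% of all genes were called. That gene was Il10, the anti-inflammatory cytokine, at log2 1.99 ± 0.36 (adjusted p = 0.0113). It averaged 12.1 ± 2.57 CPM with trap supernatant (SD, n = 3), 15.3 ± 5.76 CPM with mast cell supernatant (n = 5) and 4.28 ± 2.51 CPM in untreated cells (n = 6). The list's median log2 fold change was 0.07 in both comparisons. The 5 genes whose response was most like that of Maf over the 8 treated libraries were Dok2, Tubb2b, Etv5, Metrnl and Rgs18, with root-mean-square log2 differences of 0.25 (Dok2) to 0.35 (Rgs18), against a root-mean-square response of 1.0 for Maf itself and over 9769 candidate genes.

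Cebpa (ENSMUSG00000034957, chr7:35119293-35121928, plus strand; promoter above) was measured at 125, 110 and 151 CPM with trap supernatant in batches 1, 2 and 3. Mast cell supernatant libraries held 121 and 118 CPM in batch 1, 85.6 CPM in batch 2 and 169 and 159 CPM in batch 3. Untreated libraries had 246 and 231 CPM in batch 1, 160 and 159 CPM in batch 2, and 200 and 248 CPM in batch 3. All 3 trap libraries lay below all 6 untreated libraries, as for 1.69% of all genes tested, and below those of their own batch, as for 8.13%. The mast cell supernatant libraries overlapped the untreated ones over the series but not within any batch, where Cebpa was lower throughout, as for 4.65% of all genes. The level fell by 0.68 ± 0.11 on the log2 scale with trap supernatant (1.60-fold lower; adjusted p = 0.00583) and by 0.76 ± 0.09 with mast cell supernatant (1.69-fold lower; adjusted p = 0.000372). Within batches 1, 2 and 3 the log2 differences were -0.93, -0.53 and -0.56 for trap supernatant, and -1.0, -0.90 and -0.44 for mast cell supernatant. Without trap replicate 3 the adjusted p with trap supernatant was 0.0528 (log2 -0.65). Without the 2 libraries richest in mast cell transcripts the fall was -0.67 (adjusted p = 0.0611) with trap supernatant and -0.70 (adjusted p = 0.00536) with mast cell supernatant. In a model of the 9 libraries with replicate numbers 1 to 3, with the number as a block, the values were -0.65 (adjusted p = 0.309) and -0.73 (adjusted p = 0.153). The genes most like Cebpa over the treated libraries were Tmem86a, Fkbp5, 6330403L08Rik, Npas4 and Pwwp2b, at root-mean-square log2 differences of 0.16 (Tmem86a) to 0.22 (Pwwp2b), against a response of 0.76 for Cebpa.

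**Figure D2:**
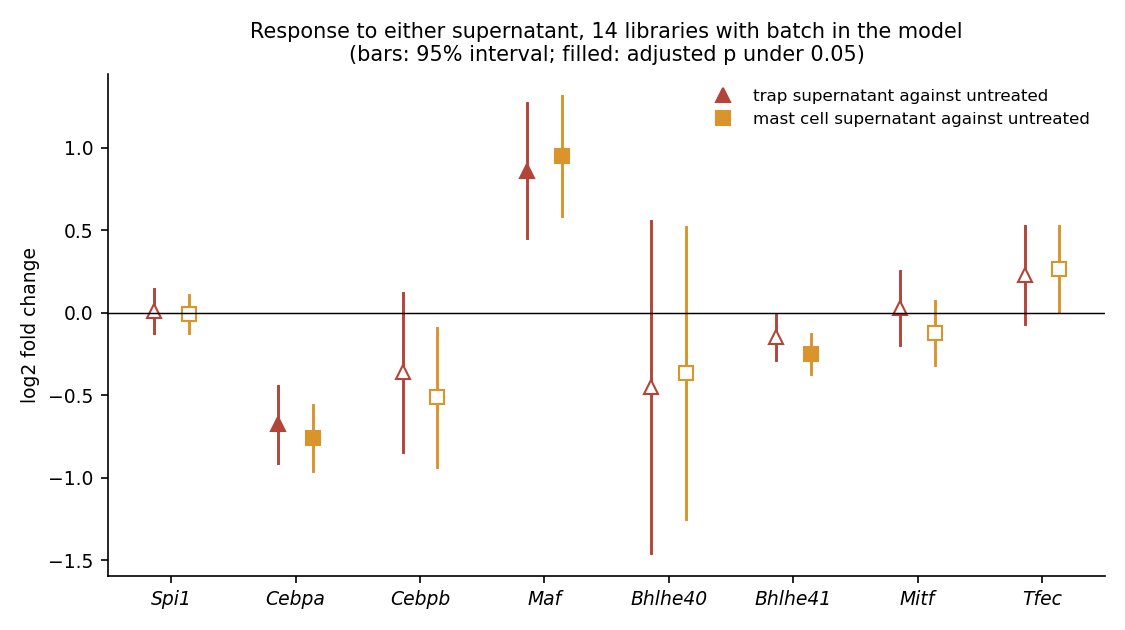
Log2 fold change of each gene with trap supernatant and with mast cell supernatant against untreated, from the model of all 14 libraries with batch as a term. Bars are 95% intervals, and filled symbols have an adjusted p under 0.05: Cebpa (-0.68 and -0.76) and Maf (0.86 and 0.95) for both supernatants and Bhlhe41 (-0.25) for mast cell supernatant.

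Spi1 (ENSMUSG00000002111, chr2:91082390-91115756, plus strand) was at 936, 895 and 789 CPM with trap supernatant in batches 1, 2 and 3. With mast cell supernatant it was at 966 and 1039 CPM, 793 CPM, and 812 and 755 CPM in the same order, and untreated libraries ranged from 783 to 927 CPM. The groups overlapped. The log2 fold change was 0.01 (95% interval -0.12 to 0.14; adjusted p = 0.967) with trap supernatant and -0.01 (-0.12 to 0.11; adjusted p = 0.965) with mast cell supernatant. With RLE scaling the value with mast cell supernatant was 0.00158. Of 16 genes that PU.1 and C/EBP proteins are known to drive, such as Csf1r, Itgam and Lyz2, 1 rose with trap supernatant and 3 with mast cell supernatant, and 0 fell in either. Among all genes tested, 0.919% rose and 0.796% fell with trap supernatant, and 2.17% rose and 2.62% fell with mast cell supernatant. Tlr4, the lipopolysaccharide receptor gene, rose in both (log2 0.60 ± 0.10, adjusted p = 0.00489, and 0.45 ± 0.09, adjusted p = 0.0067). Its co-receptor gene Cd14 rose by 0.39 ± 0.10 (adjusted p = 0.0412) and the Fc receptor gene Fcgr3 by 0.17 ± 0.04 (adjusted p = 0.0365) with mast cell supernatant. Cd14 was at 1019 and 1101 CPM, 535 CPM, and 627 and 576 CPM with mast cell supernatant in batches 1, 2 and 3. Untreated libraries had 638 and 638 CPM, 403 and 421 CPM, and 552 and 622 CPM, so the groups overlapped in batch 3. The response of Cd14 differed by batch (adjusted p = 0.00336 in the test of that difference described below). The median of the 16 was 0.04 in both comparisons.

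Cebpb (ENSMUSG00000056501, chr2:167688915-167690418, plus strand) responded differently from batch to batch. It was at 408, 218 and 292 CPM with trap supernatant in batches 1, 2 and 3. Mast cell supernatant gave 432 and 531 CPM in batch 1, 144 CPM in batch 2 and 235 and 217 CPM in batch 3, and untreated libraries had 433 and 410 CPM, 285 and 311 CPM, and 420 and 423 CPM. In batches 2 and 3 all 5 treated libraries were below both untreated libraries of their batch, whereas in batch 1 the trap library was just below them, so that trap libraries were lower in every batch as for 8.13% of all genes, and the 2 mast cell supernatant libraries lay between and above them. The pooled log2 fold changes, -0.36 ± 0.22 (adjusted p = 0.536) with trap supernatant and -0.51 ± 0.19 (adjusted p = 0.171) with mast cell supernatant, did not pass the test. Without mast cell supernatant replicate 4, from batch 1, the value with mast cell supernatant was -0.65 (adjusted p = 0.0465). The first exon of Tmem189, on the opposite strand, overlaps Cebpb, and the strand setting of the counting is not given, so reads of the overlap cannot be told apart if strand was ignored. Tmem189, chosen after its values were seen, held 2857 to 5346 counts per library against 2524 to 9049 for Cebpb, and its log2 fold changes were 0.02 and 0.04 (adjusted p = 0.937 and 0.746). Other antisense partners of the 8 genes held at most 33 counts in any library.

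Bhlhe40 (ENSMUSG00000030103, chr6:108660629-108666925, plus strand) changed direction between batches. It was at 221 CPM with trap supernatant in batch 1, 81.8 CPM in batch 2 and 81.4 CPM in batch 3. With mast cell supernatant it was at 222 and 315 CPM in batch 1, 117 CPM in batch 2 and 49.5 and 50.6 CPM in batch 3. Untreated libraries had 149 and 142 CPM, 138 and 143 CPM, and 171 and 145 CPM, so all treated libraries of batch 1 lay above and all those of batches 2 and 3 below their untreated libraries. The log2 differences were 0.61, -0.78 and -0.95 with trap supernatant, and 0.87, -0.26 and -1.65 with mast cell supernatant, while the untreated batch means spanned only 0.17 on the log2 scale. The pooled values of -0.45 ± 0.45 (adjusted p = 0.758) and -0.37 ± 0.39 (adjusted p = 0.67) average over these opposite directions.

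Bhlhe41 (ENSMUSG00000030256, chr6:145858243-145865558, minus strand; promoter above) had a small and even response. It was at 75.2, 31.1 and 75.0 CPM with trap supernatant in batches 1, 2 and 3. Its level with mast cell supernatant was 72.0 and 73.9 CPM, 27.2 CPM, and 68.9 and 70.0 CPM, and untreated libraries had 87.7 and 84.3 CPM, 36.2 and 32.7 CPM, and 88.0 and 72.4 CPM. Every mast cell supernatant library was below both untreated libraries of its batch, as for 4.65% of all genes. The level fell by 0.25 ± 0.06 on the log2 scale with mast cell supernatant (1.19-fold lower; adjusted p = 0.0176), and by batch the differences were -0.24, -0.34 and -0.20. The value with trap supernatant, -0.15 ± 0.07 (adjusted p = 0.362), did not pass the test. The fall with mast cell supernatant was no longer past the threshold without mast cell supernatant replicate 1 (-0.25, adjusted p = 0.0503), without replicate 2 (-0.22, adjusted p = 0.0629), without the 2 libraries richest in mast cell transcripts (-0.22, adjusted p = 0.0911) or in the model with the replicate block (-0.35, adjusted p = 0.0542). Among the genes most like Bhlhe41 over the treated libraries were Ifngr2, Slc7a6, Pip5k1c and Ubp1, at root-mean-square log2 differences of 0.05 (Ifngr2) to 0.07 (Ubp1), against a response of 0.22 for Bhlhe41. None of the 12 tested clock genes of a list of DEC1 and DEC2 targets, such as Per1, Nr1d1 and Dbp, passed the pooled test with either supernatant (0 of 12 in both). That test called 1.72% of all genes with trap supernatant and 4.79% with mast cell supernatant.

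Mitf (ENSMUSG00000035158, chr6:97807052-98021349, plus strand) has 8 annotated transcripts from several starts, which gene counts do not separate. It was at 188, 143 and 157 CPM with trap supernatant in batches 1, 2 and 3, at 159 and 194 CPM, 139 CPM, and 120 and 137 CPM with mast cell supernatant, and at 176 and 157 CPM, 140 and 129 CPM, and 166 and 183 CPM untreated. The treated libraries were below both untreated ones in batch 3 and mixed or above in batches 1 and 2. The log2 fold changes were 0.03 ± 0.10 (adjusted p = 0.947) with trap supernatant and -0.12 ± 0.09 (adjusted p = 0.488) with mast cell supernatant. Mast cells also express Mitf. Of the libraries with the most mast cell transcripts, trap replicate 3 (157 CPM) was below both untreated libraries of batch 3 (166 and 183 CPM). Mast cell supernatant replicate 2 (139 CPM) lay between the untreated libraries of batch 2 (140 and 129 CPM). The part of mast cell RNA in the Mitf values was not tested.

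Tfec (ENSMUSG00000029553, chr6:16833373-16898441, minus strand; promoter above) was the lowest of the 8. It was at 34.5, 24.3 and 22.8 CPM with trap supernatant in batches 1, 2 and 3, at 31.7 and 40.2 CPM, 22 CPM, and 26.1 and 24.0 CPM with mast cell supernatant, and at 21.9 and 23.2 CPM, 23 and 19.0 CPM, and 23.3 and 27.1 CPM untreated. Only in batch 1 did all treated libraries lie above both untreated libraries. The pooled log2 fold changes were 0.23 ± 0.14 (adjusted p = 0.525) and 0.27 ± 0.12 (adjusted p = 0.245). Of 9 tested genes of a MITF and TFEC target list, among them the osteoclast genes Acp5 and Ctsk and the lysosomal genes Clcn7, Ostm1 and Mcoln1, 0 passed in either comparison. The shares of all genes that passed were 1.72% with trap supernatant and 4.79% with mast cell supernatant. All 9 had a log2 value below 0 in both with TMM scaling, and 1 of them was above 0 with mast cell supernatant under RLE scaling and under DESeq2. With TMM scaling, 6248 of all 13061 genes were above 0 with trap supernatant and 6314 with mast cell supernatant. The comparisons share their untreated libraries. The medians of the 9 were -0.14 (trap supernatant) and -0.18 (mast cell supernatant), and their median response to both was 0.02, -0.14 and -0.30 in batches 1, 2 and 3.

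**Figure D3:**
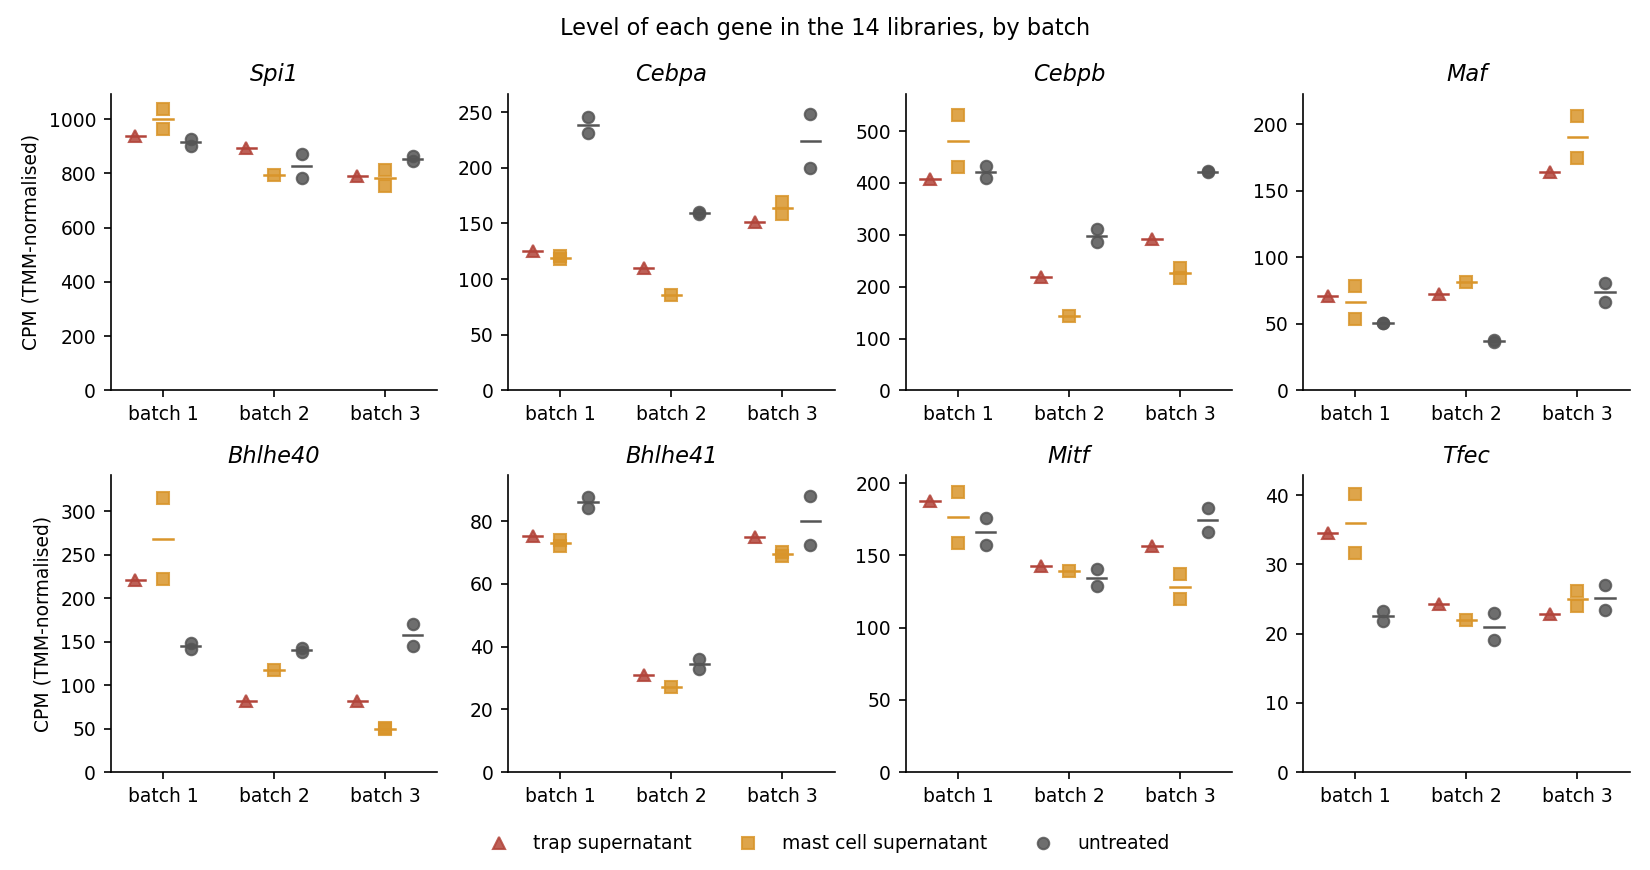
TMM-normalised CPM of each gene in the 14 libraries, by batch, with trap supernatant, mast cell supernatant and untreated libraries from left to right. Lines are means within a batch. Cebpa is lower and Maf higher in all treated libraries than in the untreated libraries of the same batch, Bhlhe41 is at 27.2 to 36.2 CPM in all of batch 2, and Bhlhe40 runs from 315 CPM in a batch 1 library to 49.5 CPM in a batch 3 library, both with mast cell supernatant.

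Whether the mean response to both supernatants differed among the 3 batches was tested directly. It differed for 3 of the 8 genes, Bhlhe40 (adjusted p = 5.93e-05), Cebpb (adjusted p = 0.000116) and Tfec (adjusted p = 0.0299), against 8.01% of all genes tested. The mean log2 responses in batches 1, 2 and 3 were 0.74, -0.52 and -1.30 for Bhlhe40, 0.07, -0.75 and -0.71 for Cebpb, and 0.64, 0.14 and -0.07 for Tfec. Cebpa (adjusted p = 0.0515), Maf (0.0635) and Mitf (0.0983) missed the threshold, as did Spi1 (0.418) and Bhlhe41 (0.917), while Maf passed with DESeq2 (adjusted p = 0.00207) and limma-voom (0.0189). The mean responses were -0.96, -0.71 and -0.50 for Cebpa and 0.43, 1.05 and 1.27 for Maf, so the highest mean of Maf and the lowest of Bhlhe40 were both in batch 3. On simulated counts this test made more false calls than its rate allows, and Tfec was lost with DESeq2 (adjusted p = 0.0647) and without untreated replicates 1 (0.194), 2 (0.053) or 4 (0.117) or mast cell supernatant replicates 3 (0.0507), 4 (0.0908) or 5 (0.0693). Each of 4 libraries, the 3 trap libraries and mast cell supernatant replicate 2, is alone in its group and batch and could not be left out here. The treated libraries of batch 1 held 91.6 to 118 CPM of mast cell markers, against 260 to 2251 CPM in batches 2 and 3, and the median log2 response of 10 neutrophil markers was 0.35, -0.23 and -0.26 by batch. Their part in these differences was not tested.

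**Figure D4:**
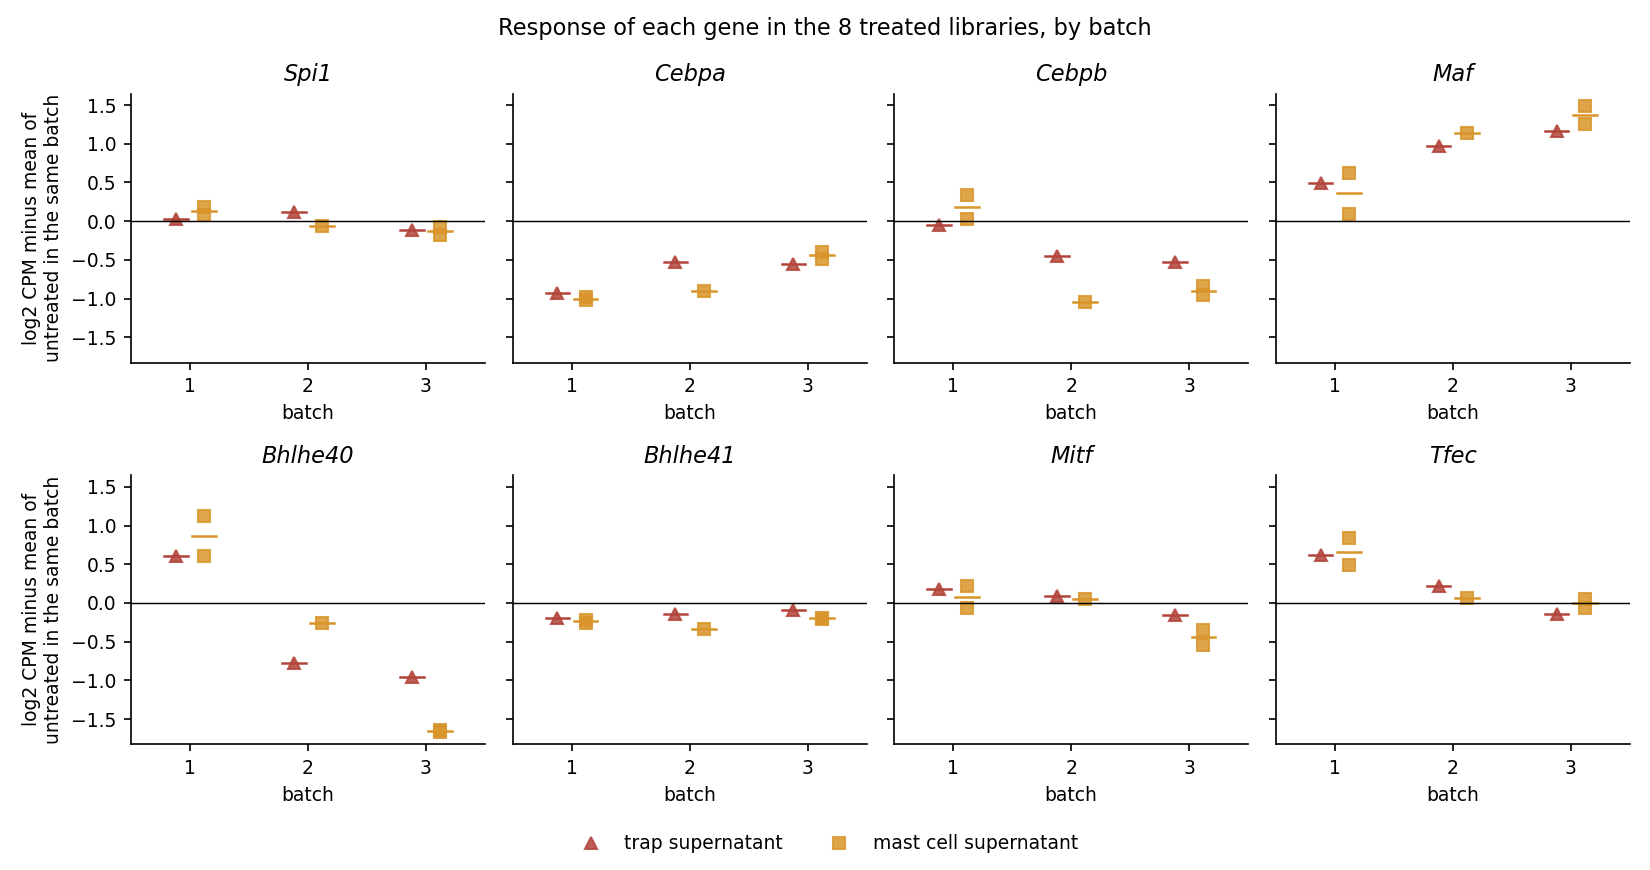
Log2 CPM of each treated library minus the mean log2 CPM of the untreated libraries of the same batch, for trap supernatant (triangles) and mast cell supernatant (squares), with lines at means. Bhlhe40 lies above 0 in batch 1 and below 0 in batches 2 and 3. Cebpb lies near or above 0 in batch 1 and below it after. Tfec lies above 0 in batches 1 and 2, furthest in batch 1, and on both sides of 0 in batch 3. Maf lies above and Cebpa below 0 throughout.

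Other regulators and targets also differed by batch, and for this test they were named after their values were seen. The same test called 8.01% of all genes and made more false calls than its rate allows on simulated counts. Of 12 tested relatives of the 8 genes, 3 differed, among them the small MAF genes Maff (1.63, 0.02 and -1.04 by batch; adjusted p = 0.00171) and Mafk (1.11, 0.10 and -0.50; adjusted p = 4.81e-06). Maff and Mafk shared with Bhlhe40 a positive value in batch 1 and a negative one in batch 3. Of 21 other macrophage factors 9 differed, with a median log2 response of 0.39, 0.08 and -0.09. Egr2, an early response gene, ran at 1.14, 0.87 and -1.03 (adjusted p = 3.16e-10), and Klf4, a factor of monocyte differentiation, at 1.72, 0.08 and -0.47 (adjusted p = 5.37e-07).

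Of 6 tested genes of a C/EBP beta target list 5 differed, with a median log2 response of 1.41, 0.25 and -0.11 by batch. The median of all genes tested was -0.02 in batch 1 and nearer to 0 in the others. Tnf had 2.24, 0.37 and -0.47 (adjusted p = 5.86e-09), Ptgs2, the inducible prostaglandin synthase gene, 3.56, 1.64 and -0.01 (adjusted p = 1.95e-06), and Nos2, the inducible nitric oxide synthase gene, 0.55, -2.45 and -2.81 (adjusted p = 4.03e-05). Of the 12 clock genes 5 differed (medians 0.20, -0.05 and -0.27), among them Per1 at 1.10, 0.20 and -0.42 (adjusted p = 3.5e-06) and Nr1d1 at 0.88, -0.30 and -0.62 (adjusted p = 0.000114). The PU.1 and C/EBP list had 2 of 16 (Cd14 and Cybb), the MITF and TFEC list 2 of 9 (Acp5 and Hif1a) and the c-MAF list 1 of 7 (Il10, at 3.08, 1.33 and 1.38). These counts stand beside 8.01% of all genes tested.

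In the pooled comparisons 1 of the 21 other factors passed with trap supernatant and 4 with mast cell supernatant, where 1.72% and 4.79% of all genes passed. Among the 12 relatives, 0 passed with trap supernatant and 1 with mast cell supernatant, Ddit3, the stress-induced C/EBP relative (log2 0.40 ± 0.09; adjusted p = 0.0175). Among the 21 other factors Mef2c rose with trap supernatant (0.34 ± 0.08; adjusted p = 0.0422) and with mast cell supernatant (0.49 ± 0.07; adjusted p = 0.000633). With mast cell supernatant Ets2 (0.70 ± 0.13; adjusted p = 0.0112) and the lipid-sensing receptor gene Pparg (0.41 ± 0.08; adjusted p = 0.00556) also rose and Mef2a fell by 0.43 ± 0.08 (adjusted p = 0.00766). Of 8 tested mast cell and progenitor factors 1 was called with each supernatant, Gata1, which averaged only 0.393 CPM. Gata1 was at 0 counts in 5 of the 6 untreated libraries and in every treated library of batch 1. It had 15 and 36 counts in trap replicates 2 and 3, and 18, 7 and 1 in mast cell supernatant replicates 2, 3 and 5. Trap replicate 3 and mast cell supernatant replicate 2 are the libraries richest in mast cell transcripts, whose part was not tested. Mertk, a receptor gene for dying cells, was the 1 of 10 macrophage markers that fell with both, by 0.83 ± 0.17 (adjusted p = 0.0328) and by 0.90 ± 0.15 (adjusted p = 0.00422). The size of some of these responses differed between batches. The mean log2 response in batches 1, 2 and 3 was -0.40, -1.16 and -1.06 for Mertk (adjusted p = 0.00346) and 0.67, 0.26 and 0.17 for Pparg (adjusted p = 0.00608), and 3 of the 10 macrophage markers differed by batch, against 8.01% of all genes tested.

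Between the supernatants themselves, none of the 8 genes differed, and none of the 13061 genes passed (0%), with 569 genes at an unadjusted p under 0.05 in edgeR's test, 11 genes called by DESeq2 and 0 by limma-voom. The log2 differences of trap supernatant from mast cell supernatant were -0.09 for Maf (95% interval -0.52 to 0.34), 0.08 for Cebpa (-0.16 to 0.32), 0.10 for Bhlhe41 (-0.04 to 0.25) and 0.02 for Spi1 (-0.12 to 0.16). They were 0.15 for Cebpb (-0.35 to 0.65), -0.08 for Bhlhe40 (-1.10 to 0.93), 0.15 for Mitf (-0.08 to 0.38) and -0.04 for Tfec (-0.35 to 0.28). These intervals do not show that the supernatants act alike, and that of Bhlhe40 is the widest of the 8. Bhlhe41 was higher with trap than with mast cell supernatant in each batch (log2 0.04, 0.19 and 0.11), as for 5.93% of all genes. For Bhlhe40 the differences by batch were -0.26, -0.52 and 0.70, and for Cebpb they were -0.23, 0.60 and 0.37.

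Batches also differed in level at like treatment, for 7 of the 8 genes and 50.9% of all genes tested. Bhlhe41 stood out with an adjusted p of 4.99e-10. Its untreated means were 86.0 CPM in batch 1, 34.5 CPM in batch 2 and 80.2 CPM in batch 3, a span of 1.32 on the log2 scale, while untreated Maf means were 50.5, 37.1 and 73.6 CPM, a span of 0.98. Untreated means were 238, 159 and 224 CPM for Cebpa, 422, 298 and 422 CPM for Cebpb, and 915, 827 and 855 CPM for Spi1. The adjusted p of the batch terms was 0.000671 for Cebpa, 0.00728 for Cebpb and 0.00618 for Spi1. These tests of batch use all 14 libraries, treated ones included, and do not test the untreated means alone. For Spi1 the untreated means spanned 0.146 on the log2 scale, and the untreated pair of batch 2 differed by 0.154. The 4 fibroblast markers, Col1a1 among them, summed to 139 to 163 CPM in the libraries of batch 2. The other libraries held 8.19 to 29.4 CPM of them. All 10 macrophage markers also differed between batches. They summed to 19080 to 20988 CPM in batch 1, 12039 to 12977 CPM in batch 2 and 9647 to 10623 CPM in batch 3. The 11 neutrophil markers summed to 282 to 327 CPM in batch 3 and to 74.0 to 191 CPM in the others. The part of these markers in the batch differences was not tested. Bhlhe40 (adjusted p = 0.0691) did not pass, and Tfec (adjusted p = 0.0499) and Mitf (adjusted p = 0.0219) passed narrowly.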

How the data were processed

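The deposited values are raw, unnormalised read counts per gene for 14 poly(A) RNA libraries, which per the labels' protocols were made with a stranded Illumina mRNA kit. The authors counted reads with featureCounts 2.0.0 on GRCm38, per the submitters' processing notes, and the aligner, the annotation and the strand setting are not given in the sources at hand. Symbols, coordinates and exon lengths came from GENCODE M 21, and 627 identifiers had no symbol. The 8 genes, the gene lists and the tests were chosen with earlier results of these data known.

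With edgeR 4.0.16 (R 4.3.3), filterByExpr kept 13061 of 47937 genes and TMM scaled the libraries. All 14 libraries were fitted with terms for group and batch, and compared by the quasi-likelihood F test of edgeR. P-values were adjusted by Benjamini-Hochberg over all genes tested, at a false discovery rate of 0.05, and every adjusted p is from this test unless another tool is named. SE is that implied by F. The response by batch was tested with 1 coefficient for each group in each batch and 2 degrees of freedom. Log2 differences within a batch use a prior count of 1. The likeness of 2 genes was taken among genes averaging at least 5 CPM. All 8 genes are described. From each list the genes named are those past the threshold, at most 4 with the largest change and at least 1 CPM. Gata1, which averaged 0.393 CPM, is named outside this rule. Some genes that these rules give are not reported here.

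Replicates 1 to 3 carry batches 1 to 3 in the labels, so equal numbers stand for 1 batch. Deviations from the group means correlated at 0.298 to 0.71 in the 9 pairs that share a number, and at -0.592 to 0.173 in other pairs. No 2 libraries were identical, and each was counted as 1 library. The chi-square per degree of freedom of pairs within groups was 1.83 to 14.9 in the same batch and 31.5 to 78.4 otherwise. These values do not show whether libraries of a batch came from separate cultures. The fits were tested on simulated data. Most planted 2-fold changes were recovered in each comparison, but false calls exceeded the nominal rate, most for the response by batch and less for trap against mast cell supernatant and for mast cell supernatant against untreated. Alternatives were RLE scaling, DESeq2 1.42.0, limma-voom (limma 3.58.1), no filter, no batch term, only the groups compared, a replicate block, and leaving out each library. One more, without the 2 libraries richest in mast cell transcripts, was chosen after seeing the data.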

Additional observations from a re-analysis of the deposited data

Results flagged for a closer look

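Cebpb and Bhlhe40 responded differently to the supernatants in the 3 batches (edgeR's quasi-likelihood test of the difference itself, adjusted p = 0.000116 for Cebpb and 5.93e-05 for Bhlhe40), and so did Tfec (adjusted p = 0.0299), which was lost in some of the alternatives named with it. Of 16 groups of values looked at for a single library far from the rest, 2 held one, where chance alone gives about 1 in 20. Bhlhe40 was at 171 CPM in untreated replicate 3, against 138 to 149 CPM in the other 5 untreated libraries. Bhlhe41 was at 27.2 CPM in mast cell supernatant replicate 2, against 68.9 to 73.9 CPM in the other 4. That library is the only one of batch 2 in its group, and the trap and untreated libraries of batch 2 held 31.1 to 36.2 CPM.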

How the results depend on the processing

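Over all alternatives, 693 of 792 values for the 8 genes kept their direction and side of the threshold, 49 lost and 18 gained the threshold, and 32 changed sign, 0 of them called in either setting. The number of genes called with trap supernatant, 224, was 409 with DESeq2, 15 without the batch term, 80 without the 2 libraries richest in mast cell transcripts and 97 to 280 with 1 library left out (97 without trap replicate 3, 131 without untreated replicate 5, 134 without untreated replicate 2, 137 without trap replicate 1). With mast cell supernatant, 625 became 62 without the batch term, 384 without those 2 libraries and 449 to 751 with 1 library left out. Between the supernatants, 0 became 11 with DESeq2, 22 with only the groups compared and 0 to 3 with 1 library left out. For the response by batch, 1046 became 573 to 2219 (573 without untreated replicate 4, 574 without untreated replicate 1, 2219 without untreated replicate 3). There Maf also passed without a filter (9.11e-10) and without untreated replicate 3 (0.0394) or mast cell supernatant replicates 1 (0.000813) or 4 (0.0127), Cebpa with RLE (0.048), without a filter (0.00293) and without untreated replicate 6 (0.000187), and Mitf without a filter (0.00363) and without untreated replicate 3 (0.0284) or mast cell supernatant replicate 1 (0.0422). The difference between batches ran from 5761 to 6700 genes. Without the batch term none of the calls for Maf, Cebpa and Bhlhe41 passed. Without a filter on low counts the rise of Maf with trap supernatant was 0.87 (adjusted p = 0.0992). Tfec's difference between batches was lost in 13 of 19 alternatives, and Mitf's without untreated replicate 5 (0.0571), trap replicate 1 (0.0656) or trap replicate 2 (0.0515).

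In the fit of 9 libraries with the replicate number as a block, which is the same term as batch there, 36 genes were called with trap supernatant, 84 with mast cell supernatant and 0 between them. Maf was 0.81 (adjusted p = 0.0164) and 0.94 (0.00425), and among the 8 genes the block ended only the calls of Cebpa and Bhlhe41 given above. No such fit was made for the 2 tests among batches.

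No value that changed sign was called in either setting. Spi1 with mast cell supernatant was 0.00158 with RLE, 0.00162 with DESeq2, 0.0118 without the batch term, 0.00342 with the block and 0.016 without the 2 libraries, and -0.0432 to 0.0204 with 1 library left out. Bhlhe40 with mast cell supernatant was 0.0273 without the batch term. With trap supernatant and 1 library left out, Spi1 ran from -0.0496 to 0.0461 and Mitf from -0.0154 to 0.0871. For trap against mast cell supernatant, Cebpa was -0.0154, Cebpb -0.0264 and Bhlhe41 -0.047 without the batch term, Bhlhe40 0.00629 with only the groups compared and 0.00323 with the block, Tfec 0.0329 with the block, and Cebpb -0.0315 and Tfec 0.0187 without the 2 libraries. With 1 library left out these ran from -0.216 to 0.00327 for Maf, -0.0364 to 0.054 for Spi1, -0.00547 to 0.143 for Cebpa, -0.3 to 0.161 for Bhlhe40 and -0.147 to 0.0784 for Tfec. The cause was not tested. Depth limits none of the 8 genes, whose counts were at least 277 per library.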
